A study of Saccharomyces cerevisiae with 58 samples.

Results

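The 8 genes described here encode the transcription factors that start the G1/S programme of budding yeast and the proteins that control them. They were taken by name from the platform's gene table: SWI4, SWI6, MBP1, WHI5, NRM1, STB1, BCK2 and CLN3, 8 of the 5449 genes measured, each with 1 probe set. Their RNA was read on 58 Affymetrix arrays, 1 array per time and culture, after release of small G1 cells collected by elutriation, a sorting of cells by size. The B-cyclin mutant gave 30 arrays from 2 cultures and the wild type 28 arrays from 2 cultures. Both strains are BF264-15DU MATa haploids grown in YEPDextrose with sorbitol at 30 degrees. Per its label the mutant carries disruptions of the B-type cyclin genes, namely clb5::ARG4 and clb6::APE1 of the S-phase cyclins and clb1::URA3, clb2::LEU2 and, of a further pair, clb3::TRP1 and clb4::HIS2, with GAL1-CLB1:LEU2, a CLB1 copy behind the galactose-inducible GAL1 promoter. The bar1 mutation is listed for the wild type alone. Mutant culture 1 and wild-type culture 2 were sampled from 38 to 262 min, and mutant culture 2 and wild-type culture 1 from 30 to 254 min.

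In S. cerevisiae, SBF consists of Swi4, which binds DNA, and Swi6, and MBF of Mbp1, which binds DNA, and the same Swi6. SBF is best known for G1 cyclin, budding and cell wall genes, and MBF for genes of DNA replication and repair. Whi5 holds SBF inactive in early G1 until the kinase Cdc28 with the G1 cyclin Cln3 relieves it. Bck2 promotes the same transcription without Cln3, and Stb1 binds Swi6. Nrm1 is an MBF target that represses MBF targets after G1. SWI4 and CLN3 themselves are transcribed around the M/G1 boundary through the early cell cycle box, a promoter element bound by Mcm1, and B-type cyclins with Cdc28 are known to switch SBF off in G2.

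Values are log2(intensity + 1) of a probe set, and differences are mutant minus wild type on that scale. In these populations fewer cells with a transcript and less of it per cell cannot be told apart. Values compare a gene with itself, since the levels of different probe sets cannot be compared. The background level was 9.06, the 95th percentile of the mean values of 1746 probe sets named to genes outside the S. cerevisiae annotation. SWI6, MBP1, BCK2 and CLN3 lay above it on 58 of 58 arrays, WHI5 on 52, NRM1 on 46, SWI4 on 41 and STB1 on 24, so low values of SWI4, STB1 and NRM1 are partly background and changes there may be understated. The disruptions were visible for CLB2, CLB3 and CLB4, which lay below background on 30 of 30 mutant arrays. CLB5 and CLB6 lay above background on all mutant arrays, so neither probe set shows a loss of signal. Both differed from the wild type over the whole course. CLB5 was higher by 1.03 (limma adjusted p = 0.0063) and CLB6 lower by 0.81 on the log2 scale (difference -0.81, 0.0025). CLB1 read higher in the mutant by 3.58 ± 0.20 (SE, limma adjusted p = 0.0084) from 30 to 54 min. It was also higher by 3.03 (limma adjusted p = 4.3e-05) from 62 to 102 min and by 0.73 (0.0034) from 158 to 198 min. The CLB1 difference was not called from 110 to 150 min (-0.06, 0.69) or from 206 to 262 min (0.19 ± 0.09, 0.14). The CLB1 probe set does not tell the GAL1-driven copy from the disrupted gene. Arrays next to each other in time correlated at 0.976 to 0.999 over the 46 later pairs and at 0.899 to 0.983 over the 8 pairs whose second array was taken at or before 70 min. Of the 7 a-specific genes of MATa cells, 6 averaged above background in the mutant (all but ASG7) against 6 in the wild type (all but BAR1, the gene its label lists as mutated). Of the 7, 5 were lower in the mutant over the whole course (median -0.94) and from 110 to 150 min (median -0.68), and 6 from 158 to 198 min (median -1.55) and from 206 to 262 min (median -1.52), while BAR1 was higher throughout. Their log2 summed intensity ran from 13.22 to 15.94 on mutant arrays and from 14.93 to 15.85 on wild-type arrays. Of 4 alpha-specific genes, 2 averaged above background in each strain (MF(ALPHA)2 and SAG1), with sums of 11.29 to 11.98 in the mutant against 10.97 to 12.31 in the wild type, and of 10 meiotic genes 1 in the mutant against 2 in the wild type, with sums of up to 12.86 in the mutant against 12.51 in the wild type. From 158 to 198 min 2 of the 4 alpha-specific genes were lower, and 2 of the 10 meiotic genes were higher and 2 lower. The part of these markers in the results below was not tested.

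**Figure D1:**
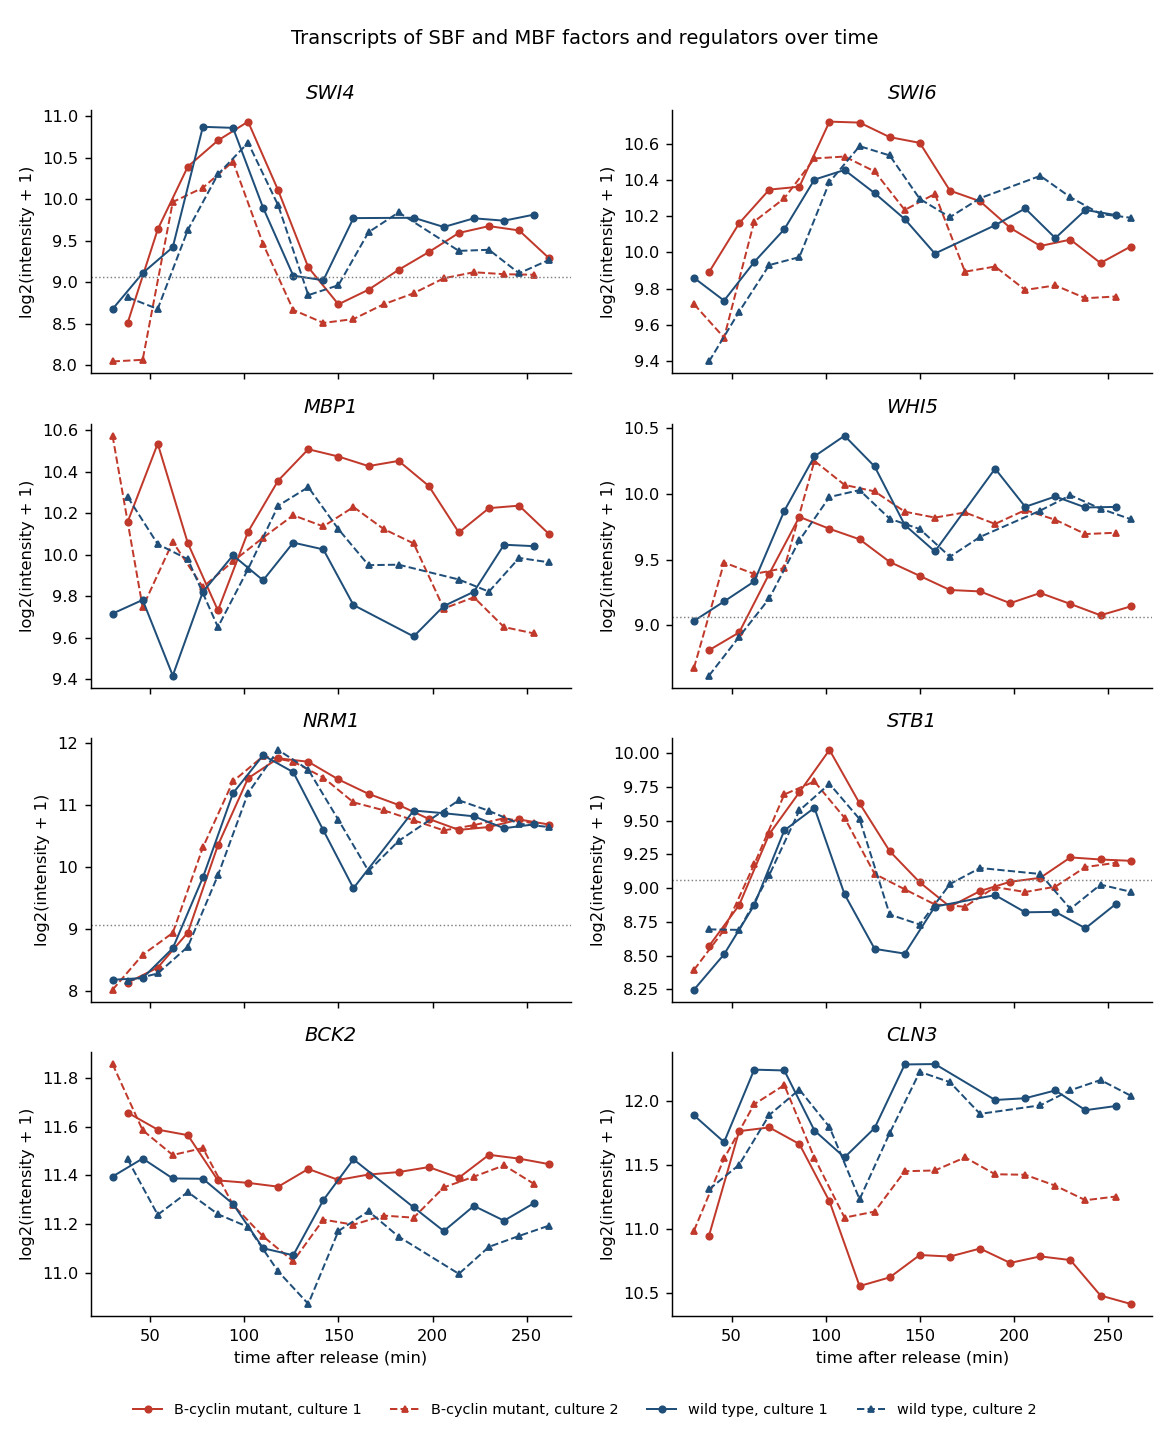
Log2(intensity + 1) of each of the 8 genes (vertical axes, scaled per gene) against minutes after release, 1 point per array, with mutant cultures in red and wild-type cultures in blue. The dotted line is the background level of 9.06. NRM1 stays near 11 in both mutant cultures around 160 min, where both wild-type cultures are near 9.8, and CLN3 at matched times is lower in the mutant from 62 min on, a difference not called before 110 min.

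SWI4, NRM1 and CLN3 differed between the strains, and the other 5 genes did not pass the test in any part of the course. Cultures were compared as means over 5 windows of time (n = 2 cultures per strain, limma over all 5449 genes, Benjamini-Hochberg adjustment, threshold 0.05). From 30 to 54 min 0 of the 8 genes were called, against 0.110% of all genes, and from 62 to 102 min 0 of 8, against 0.844%. At an unadjusted p under 0.05, 0 and 2 of the 8 (SWI6 and NRM1) passed in these windows. From 110 to 150 min CLN3 alone was lower, against 8.70% of all genes called. From 158 to 198 min SWI4 and CLN3 were lower and NRM1 higher in the mutant, 3 of 8 against 23.3%. From 206 to 262 min CLN3 alone was lower, against 32.9%. Over the whole course CLN3 alone was lower, 1 of 8 against 10.8%. The counts stand beside the shares over all genes, and nothing particular to the 8 genes is read from them.

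**Figure D2:**
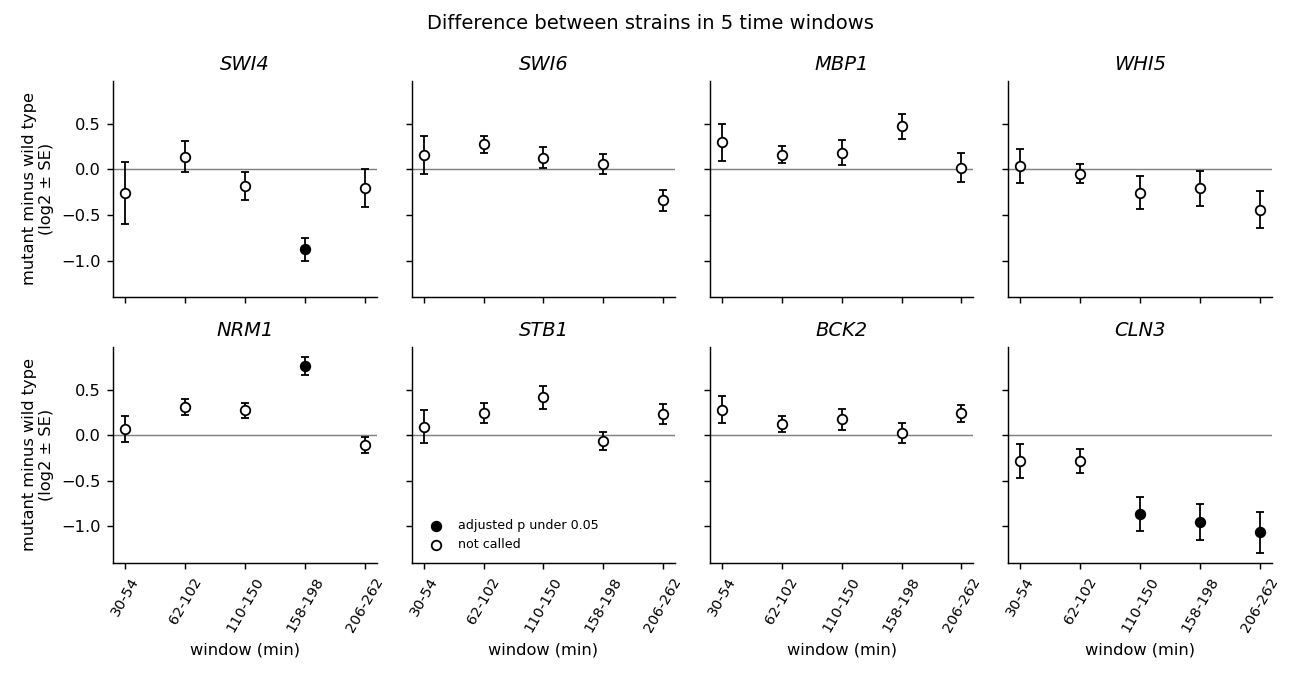
Mutant minus wild type (log2, vertical axis) with its SE in 5 windows of time (horizontal axis) for each gene, from 2 culture means per strain. Filled points have a limma adjusted p under 0.05: SWI4 and NRM1 from 158 to 198 min, and CLN3 in the 3 windows from 110 min on.

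SWI4 encodes the DNA-binding subunit of SBF. Over the arrays it ran from 8.05 through a median of 9.16 to 10.93 in the mutant and from 8.68 through 9.62 to 10.87 in the wild type, so the ranges overlapped widely. Both strains had a first pulse of like height. SWI4 was highest at 102 min (10.93) in mutant culture 1 and 94 min (10.45) in mutant culture 2, against 78 min (10.87) and 102 min (10.68) in wild-type cultures 1 and 2. The means from 62 to 102 min were 10.68 and 10.19 in the mutant cultures and 10.38 and 10.20 in the wild-type cultures, a difference of 0.14 ± 0.17 (SE, limma adjusted p = 0.82). In the 48 min after its peak SWI4 changed by -2.20 and -1.94 in the mutant cultures, against -1.79 and -1.72 in the wild-type cultures.

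The strains parted after the first pulse. From 158 to 198 min SWI4 averaged 9.03 and 8.71 in the mutant cultures, around background, and 9.77 and 9.72 in the wild-type cultures. It was lower in the mutant by 0.88 ± 0.12 on the log2 scale (difference -0.88, 0.54-fold, limma adjusted p = 0.0056), and the culture means did not overlap. With mutant values around background this size may be understated. In this window 6 of the 7 a-specific genes were also lower in the mutant (median -1.55), and their part in this result was not tested. The difference was called under all 11 alternatives, with adjusted p between 0.00091 and 0.018. The change from the 62 to 102 min window to the 158 to 198 min window was -1.65 and -1.47 in the mutant cultures and -0.61 and -0.48 in the wild-type cultures. The strains differed in it by -1.02 ± 0.10 (limma adjusted p = 0.0044, 24.6% of all genes called), which did not pass without wild-type culture 2 (-0.95, adjusted p = 0.062; range over 11 alternatives 0.0019 to 0.062). Equal times may not be equal stages of the cycle here, and stages were not measured. The period fitted to SBF and MBF target genes was 133 min in the mutant and 103 min in the wild type. The sampling did not cover a second full mutant period.

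A second, lower maximum of SWI4 followed in each strain. From its trough at 150 and 142 min, SWI4 reached 9.68 at 230 min and 9.12 at 222 min in mutant cultures 1 and 2, which is 0.94 and 0.61 above the trough, with differences from the first peak of -1.26 and -1.33. In wild-type culture 2 it reached 9.84 at 182 min, 1.00 above a trough at 134 min. In wild-type culture 1 it was 9.77 at 158 min, stayed between 9.66 and 9.81 to the end, and was highest at the last array, so no second peak time can be read there. From 206 to 262 min the culture means overlapped, with 9.54 and 9.09 in the mutant against 9.75 and 9.29 in the wild type (difference -0.20 ± 0.21, limma adjusted p = 0.49). Mutant culture 1 was the higher of the mutant cultures in every window. Without it the SWI4 difference was -0.49 over the whole course, -0.41 from 110 to 150 min and -0.43 from 206 to 262 min. With both mutant cultures it was -0.23 ± 0.17 over the whole course (limma adjusted p = 0.43). A lone mutant culture has no spread of its own, so the values without culture 1 are sizes only.

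CLN3 encodes the G1 cyclin that acts upstream of SBF and MBF. It ran from 10.42 through a median of 11.22 to 12.12 in the mutant and from 11.23 through 11.96 to 12.28 in the wild type. It was lower in the mutant at 27 of 28 matched times, all but 54 min. Both strains had an early maximum, 11.79 at 70 min and 12.12 at 78 min in mutant cultures 1 and 2, against 12.24 at 62 min and 12.09 at 86 min in wild-type cultures 1 and 2. A low followed in each culture, 10.56 at 118 min and 11.09 at 110 min in the mutant and 11.56 at 110 min and 11.23 at 118 min in the wild type.

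The mutant cultures then stayed below their early level, and the wild type returned to it. After the low CLN3 reached 10.85 at 182 min and 11.56 at 174 min in mutant cultures 1 and 2, against 12.28 at 158 min and 12.22 at 150 min in wild-type cultures 1 and 2. The window means were 10.66 and 11.23 in the mutant against 11.87 and 11.73 in the wild type from 110 to 150 min, 10.82 and 11.44 against 12.14 and 12.02 from 158 to 198 min, and 10.61 and 11.31 against 11.99 and 12.06 from 206 to 262 min. CLN3 was lower in the mutant in these 3 windows by 0.86 ± 0.19, 0.95 ± 0.20 and 1.07 ± 0.22 on the log2 scale (limma adjusted p = 0.043, 0.019 and 0.018). The last of these is 0.48-fold. In the same 3 windows 5, 6 and 6 of the 7 a-specific genes were lower in the mutant as well, and their part in this result was not tested. The CLN3 culture means did not overlap in any of the 3, and the mutant cultures differed from each other by more than the wild-type cultures did.

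The CLN3 difference was already present as a value, without passing the test, in both early windows, with -0.28 ± 0.19 from 30 to 54 min (limma adjusted p = 0.72) and -0.28 ± 0.13 from 62 to 102 min (adjusted p = 0.53). Over the whole course CLN3 was lower by 0.73 ± 0.15 on the log2 scale, or 0.60-fold (limma adjusted p = 0.027), called under all 12 alternatives (adjusted p 1.0e-05 to 0.044). The window from 158 to 198 min was called under all 11 (adjusted p 0.00071 to 0.047). The other 2 windows were not called without wild-type culture 1 (adjusted p = 0.23 from 110 to 150 min and 0.069 from 206 to 262 min) or without wild-type culture 2 (0.11 and 0.076), and the 110 to 150 min window was not called after quantile normalization (0.063). The change from 62 to 102 min to 158 to 198 min was -0.74 and -0.44 in the mutant cultures and 0.06 and 0.10 in the wild-type cultures. The strains differed in it by -0.67 ± 0.12 (limma adjusted p = 0.017), which was lost without wild-type culture 1 (-0.69, 0.086) or 2 (-0.65, 0.12).

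NRM1 encodes the co-repressor of MBF. It had the widest range of the 8 genes in both strains, from 8.03 through a median of 10.76 to 11.78 in the mutant and from 8.17 through 10.66 to 11.88 in the wild type. Its first maximum came at like times and heights in all 4 cultures. NRM1 was at 8.14 and 8.03 on the first arrays of mutant cultures 1 and 2 and at 8.19 and 8.17 on those of wild-type cultures 1 and 2. It was highest at 118 min (11.75) and 110 min (11.78) in the mutant and at 110 min (11.80) and 118 min (11.88) in the wild type, the same time in cultures on the same time grid.

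NRM1 then stayed high in the mutant. In the 48 min after the peak it changed by -0.57 and -0.74 in the mutant cultures, against -2.14 and -1.95 in the wild-type cultures. This measure, also given for SWI4 above and for the target lists, was chosen after the curves were seen, and with 2 cultures per strain an exact two-sided permutation test cannot go below p = 0.333, so it is given as a description. NRM1 read 11.04 in mutant culture 2 against 9.66 in wild-type culture 1 at 158 min, and 11.18 in mutant culture 1 against 9.94 in wild-type culture 2 at 166 min. From 158 to 198 min the means were 11.09 and 10.90 in the mutant against 10.28 and 10.18 in the wild type. As a window mean NRM1 was higher in the mutant by 0.76 ± 0.10, or 1.69-fold (limma adjusted p = 0.0050). The difference was called under all 11 alternatives (adjusted p 0.0014 to 0.027). It did not hold through the window. Mutant culture 2 minus wild-type culture 1 was 1.38 at 158 min and -0.16 at 190 min. Mutant culture 1 minus wild-type culture 2 was 1.24 at 166 min and 0.58 at 182 min.

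The later course of NRM1 was shallow in the mutant. Its values went down slowly to 10.60 at 214 min and 10.59 at 206 min in mutant cultures 1 and 2, and were 10.76 at 246 min and 10.78 at 238 min. The wild type had a second maximum at 190 min (10.91) in culture 1 and 214 min (11.07) in culture 2, 1.25 and 1.14 above a trough at 158 and 166 min. From 206 to 262 min the cultures averaged 10.67 and 10.69 in the mutant against 10.75 and 10.83 in the wild type (difference -0.11 ± 0.09, limma adjusted p = 0.39). The NRM1 peak at 110 or 118 min lies between the 62 to 102 min window and the 158 to 198 min window. The change from the first to the second of these windows thus starts on the rise. It was 0.85 and 0.68 in the mutant against 0.38 and 0.25 in the wild type. The strains differed in it by 0.45 ± 0.10 (limma adjusted p = 0.028), which was lost without wild-type culture 1 (0.51, adjusted p = 0.085), wild-type culture 2 (0.39, 0.16) or mutant culture 1 (0.37, 0.089).

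**Figure D3:**
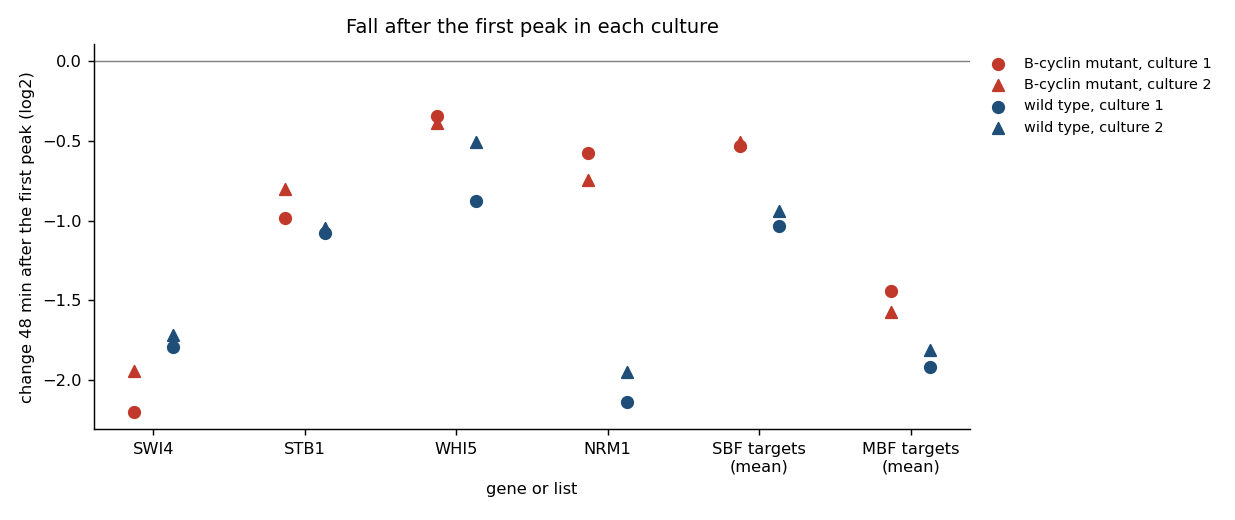
Change in log2 value from the first peak to the array 48 min later (vertical axis), 1 point per culture, for 4 genes and for the means of 2 target lists, mutant in red left of wild type in blue. NRM1 changes by -0.57 and -0.74 in the mutant and by -2.14 and -1.95 in the wild type, the widest gap of those plotted, while SWI4 changes by -2.20 and -1.94 in the mutant and by -1.79 and -1.72 in the wild type.

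SWI6, the subunit shared by SBF and MBF, varied 2.29-fold over the mutant arrays and 2.28-fold over the wild-type arrays. It ran from 9.53 through a median of 10.17 to 10.72 in the mutant and from 9.40 through 10.20 to 10.59 in the wild type. Its highest arrays were at 102 and 110 min in the mutant cultures and at 110 and 118 min in the wild-type cultures. It read higher in the mutant at 14 of the 16 matched times up to 150 min and at 2 of the 12 later ones. The difference was 0.28 ± 0.10 from 62 to 102 min (limma adjusted p = 0.38) and -0.34 ± 0.12 from 206 to 262 min (adjusted p = 0.071), where the means were 10.02 and 9.78 in the mutant cultures and 10.19 and 10.28 in the wild-type cultures. The later difference passed after quantile normalization (-0.37, limma adjusted p = 0.045), with adjusted p up to 0.37 over 11 alternatives. Without mutant culture 1 it was -0.46, given as a size only since 1 mutant culture is left.

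MBP1, the DNA-binding subunit of MBF, was highest at 54 and 30 min in mutant cultures 1 and 2 and at 126 and 134 min in wild-type cultures 1 and 2, away from the SWI4 maxima. It ran from 9.62 through a median of 10.12 to 10.57 in the mutant and from 9.42 through 9.95 to 10.33 in the wild type. From 158 to 198 min it averaged 10.44 and 10.14 in the mutant cultures against 9.68 and 9.95 in the wild-type cultures. That difference of 0.47 ± 0.14 did not pass (limma adjusted p = 0.056), and it passed with arrays centred on the median (0.046) and with the sampling grid as a block (0.0081). From 206 to 262 min the difference was 0.02 ± 0.16 (adjusted p = 0.93). The change between windows passed with the grid block (0.31, adjusted p = 0.0497). Without mutant culture 2 the difference was 0.62 from 158 to 198 min, 0.25 from 206 to 262 min and 0.33 over the whole course. In the change between windows it was 0.46. With 1 mutant culture left, these values are sizes only.

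WHI5, the repressor of SBF, ran from 8.68 through a median of 9.48 to 10.25 in the mutant and from 8.62 through 9.84 to 10.44 in the wild type. It was highest at 86 and 94 min in mutant cultures 1 and 2, against 110 and 118 min in wild-type cultures 1 and 2. The mutant maxima were flat, with 9.73 at 102 min beside 9.82 at 86 min in culture 1 and 10.07 at 110 min beside 10.25 at 94 min in culture 2. After 150 min mutant WHI5 stayed between 9.08 and 9.27 in culture 1 and between 9.69 and 9.88 in culture 2, while the wild type had a second maximum at 190 min (10.19) in culture 1 and 230 min (9.99) in culture 2. It read lower in the mutant at 11 of 12 matched times after 150 min. The difference from 206 to 262 min was -0.44 ± 0.20 (limma adjusted p = 0.14). The mutant cultures averaged 9.16 and 9.77 and the wild-type cultures 9.92 and 9.89, and without mutant culture 2 the difference was -0.75. Without that culture it was -0.41 over the whole course, -0.49 from 110 to 150 min and -0.47 from 158 to 198 min. In the change between windows it was -0.40. A lone mutant culture has no spread of its own, so these are given as sizes only.

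STB1, whose protein binds Swi6, had a G1/S pulse close to that of SWI4. It ran from 8.39 through a median of 9.09 to 10.02 in the mutant and from 8.25 through 8.88 to 9.77 in the wild type, with 14 of 30 mutant and 20 of 28 wild-type arrays below background. It was highest at 102 and 94 min in mutant cultures 1 and 2 (10.02 and 9.79) and at 94 and 102 min in wild-type cultures 1 and 2 (9.59 and 9.77). From 110 to 150 min it averaged 9.31 and 9.21 in the mutant against 8.67 and 9.02 in the wild type, a difference of 0.42 ± 0.13 (limma adjusted p = 0.11). It read higher in the mutant at 24 of 28 matched times. Without mutant culture 2 the STB1 difference was 0.47 from 110 to 150 min, 0.28 from 206 to 262 min and -0.40 in the change between windows. With 1 mutant culture left, these values are sizes only.

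BCK2, an activator of G1/S transcription in parallel to CLN3, was nearly flat. It ran from 11.05 through a median of 11.40 to 11.86 in the mutant and from 10.87 through 11.24 to 11.47 in the wild type. Its highest values were on the earliest arrays, at 38 and 30 min in mutant cultures 1 and 2 and at 46 and 38 min in wild-type cultures 1 and 2. Its lowest up to 150 min were at 118 and 126 min in the mutant and at 126 and 134 min in the wild type, while NRM1 was near its maximum. It read higher in the mutant at 23 of 28 matched times, and the whole-course difference was 0.18 ± 0.09 (limma adjusted p = 0.23). From 206 to 262 min it was 0.24 ± 0.10 (0.10), and without mutant culture 2 it was 0.27, a size only with 1 mutant culture left.

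Periodic transcription was then tested separately per strain. A sine wave of 133 min in the mutant, or 103 min in the wild type, was fitted with limma, and genes passed with an F-test adjusted p under 0.05 and a peak at least 1.5-fold over the trough. In the mutant 3 of the 8 genes passed, SWI4, STB1 and CLN3, against 6.99% of all genes, and in the wild type 4 of 8, SWI4, STB1, WHI5 and NRM1, against 11.6%. The fitted peak-to-trough of SWI4 was 1.69 ± 0.21 in the mutant against 1.30 ± 0.21 in the wild type (log2, SE), with adjusted p = 1.3e-05 and 0.00056. That of STB1 was 0.85 ± 0.12 and 0.74 ± 0.12 (adjusted p = 7.2e-05 and 0.00075). CLN3 had 0.60 ± 0.14 in the mutant (adjusted p = 0.0095) and 0.38 ± 0.12 in the wild type (0.052). The sampling did not cover a second full mutant period of 133 min, so an early pulse beside a linear trend can pass. Mutant CLN3 had an early maximum and did not return to it, so its call does not show a repeated cycle. WHI5 had 0.43 ± 0.16 (0.098) and 0.65 ± 0.14 (0.0047), and NRM1 had 1.42 ± 0.45 (0.053) and 1.81 ± 0.38 (0.0049). NRM1 also passed in the mutant under 4 of 11 alternatives. SWI6, MBP1 and BCK2 had at most 0.42 in either strain, under the 1.5-fold limit, with adjusted p of 0.032 for SWI6 and 0.014 for BCK2 in the wild type and 0.015 for MBP1 in the mutant.

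Several of these calls were lost with 1 culture left out, which leaves the arrays of a single culture. The peak-to-trough of NRM1 in the wild type was then 1.83 without culture 1 and 1.81 without culture 2, against 1.81 with both. Without mutant culture 1 that of SWI4 was 1.63, against 1.69, and that of CLN3 0.52, against 0.60. A lost call thus does not show that the left-out culture alone carried the pattern. Leaving out wild-type culture 2, 0 genes of all passed in the wild type (limma, with 1097 genes under 0.05 unadjusted), and leaving out wild-type culture 1, WHI5 and NRM1 did not (0.15 and 0.14). Without mutant culture 1 none of SWI4, STB1 and CLN3 passed (adjusted p = 0.094, 0.11 and 0.34), and without mutant culture 2 CLN3 did not (0.11). The CLN3 call was also lost without the arrays before 62 min (0.50) and with a longer period (0.57), where its peak-to-trough came under 1.5-fold. The arrays of a culture follow one another in time, so p-values over arrays may be too low. The difference between strains was tested on the size of the swing instead. The SD over time was taken per culture after removal of a linear trend. Its log2 ratio, mutant over wild type, lay between -0.12 for WHI5 and 0.41 for SWI6, and 0 of 8 genes were called by limma (0 at an unadjusted p under 0.05). Of all genes 0.147% were called, with 518 at an unadjusted p under 0.05. For NRM1 this SD was 1.04 and 1.03 in the mutant cultures and 0.99 and 0.99 in the wild-type cultures. The swing over the whole course, which includes the first rise seen in both strains, was thus of like size although the later course was not. The call in a single strain does not show that a gene is periodic only there.

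**Figure D4:**
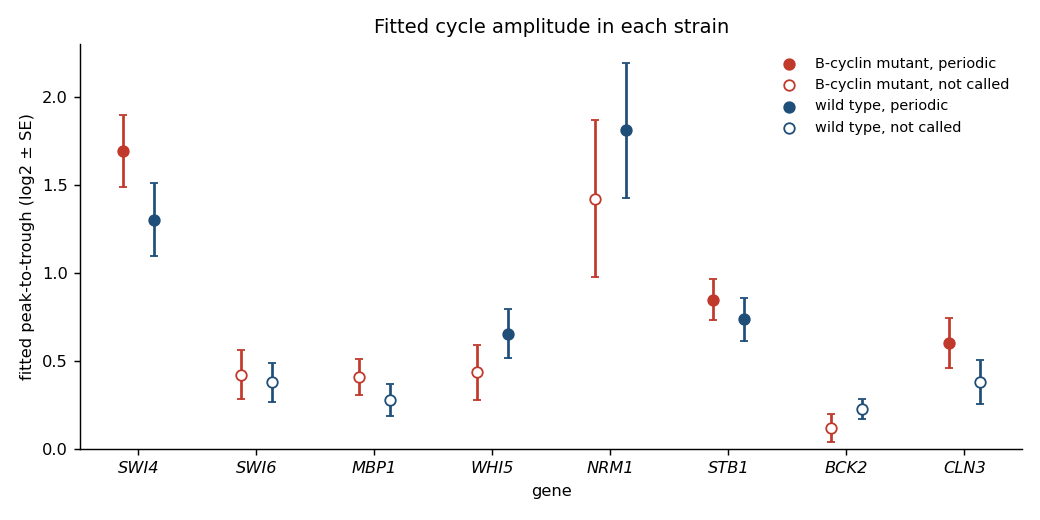
Fitted peak-to-trough (log2, vertical axis) with its SE for each gene, mutant in red left of wild type in blue, at the period of each strain. Filled points passed the rule for periodic genes: SWI4 and STB1 in both strains, CLN3 in the mutant, and WHI5 and NRM1 in the wild type.

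The targets of the factors were followed as lists. The lists hold genes known in S. cerevisiae as targets, and share 5 genes of the SBF list with the other lists. The mean of 30 SBF targets was highest at 102 and 94 min in mutant cultures 1 and 2 (12.10 and 12.16) and at 94 and 102 min in wild-type cultures 1 and 2 (12.01 and 12.01). The mean of 28 measured MBF targets peaked at the same times, at 12.08 and 12.06 in the mutant against 11.92 and 11.85 in the wild type. In the 48 min after the peak the SBF mean changed by -0.53 and -0.50 in the mutant cultures, against -1.03 and -0.94 in the wild-type cultures. The MBF mean changed by -1.44 and -1.57 in the mutant, against -1.92 and -1.81 in the wild type. The second maximum of the MBF list was at 246 and 238 min in the mutant and at 190 and 182 min in the wild type. Wild-type culture 1 has no array at 174 min and wild-type culture 2 none at 198 min, so these wild-type times are read beside a gap. The same gaps lie beside the second maxima of NRM1 in the wild type, of SWI4 in wild-type culture 2 and of WHI5 in wild-type culture 1.

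**Figure D5:**
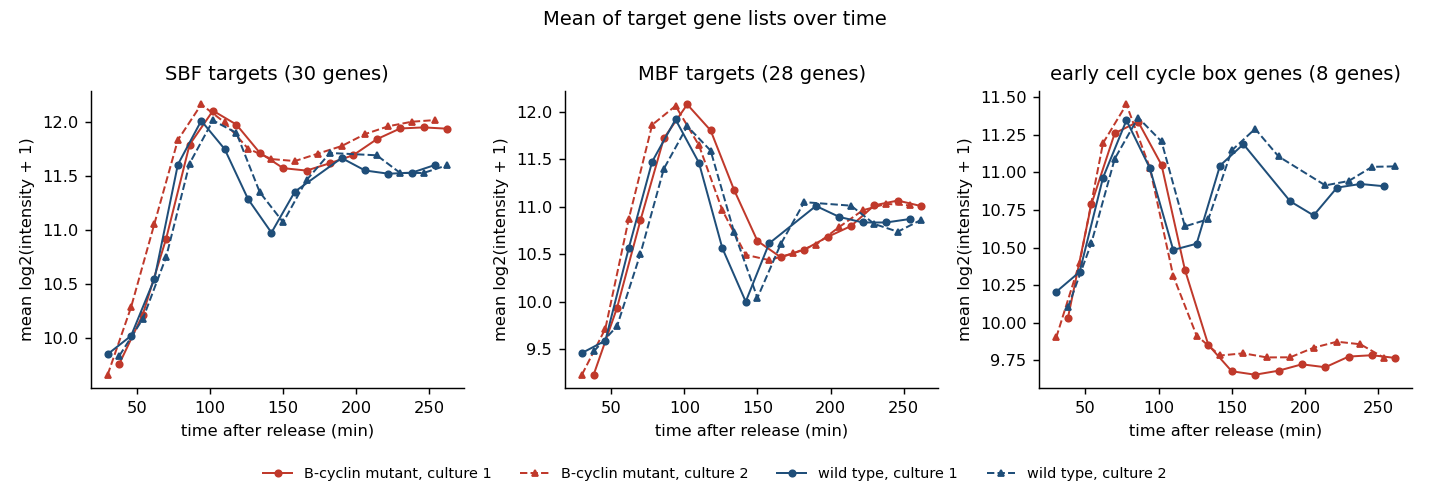
Mean log2(intensity + 1) of 3 gene lists (vertical axes) against minutes after release, mutant cultures in red and wild-type cultures in blue. After 150 min the mean of the early cell cycle box genes stays between 9.66 and 9.87 in the mutant cultures and between 10.71 and 11.29 in the wild-type cultures.

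From 110 to 150 min, where 8.70% of all genes were called, both list medians were positive. There 11 SBF targets were higher and 1 lower in the mutant (median 0.30). Of the MBF targets 8 were higher and 0 lower (median 0.36). From 158 to 198 min, where 23.3% of all genes were called (740 higher and 530 lower), the list medians had opposite signs. Both lists then had their second maximum in wild-type cultures 1 and 2 (190 and 182 min). In mutant cultures 1 and 2 both had their trough then (166 and 158 min). The part of these timings in the signs was not tested. In that window 11 SBF targets were higher and 6 lower in the mutant of 30 (median 0.29), and 2 MBF targets were higher and 15 lower of 28 (median -0.44), beside a median of 0.02 over all genes. From 206 to 262 min, where 32.9% of all genes were called, 14 SBF targets were higher and 3 lower (median 0.34) and 6 MBF targets higher and 1 lower (median 0.07), beside 0.01 over all genes. Over the whole course, with 10.8% of all genes called, 9 SBF targets were higher and 2 lower (median 0.22), led by CLN1 (0.98), PCL1 (0.87) and CLN2 (0.87), which encode G1 cyclins. Of the MBF targets 5 were higher and 0 lower (median 0.11), led by the cohesin gene MCD1 (0.61), CTF18 (0.44) and the checkpoint kinase gene DUN1 (0.44). All 28 measured MBF targets passed as periodic in each strain, at periods chosen on these same genes, and 15 of the 30 SBF targets did in the mutant against 24 in the wild type.

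CLN3 and SWI4 share the early cell cycle box with genes of the MCM helicase. Of 8 other measured genes of that group, 7 were lower and 1 higher in the mutant from 158 to 198 min (median -1.51, beside 0.02 over all genes, of which 23.3% were called) and likewise from 206 to 262 min (median -1.17, beside 0.01 and 32.9%). The 3 with the widest whole-course differences were MCM7 (-1.58 ± 0.13, limma adjusted p = 0.00058), MCM5 (-1.03 ± 0.11, 0.0018) and MCM3 (-0.96 ± 0.09, 0.0014). MCM5 lay below background on 13 of 30 mutant arrays and MCM7 on 6, against 0 wild-type arrays each, so these differences may be understated. The gene that was higher was YHP1, a repressor of early cell cycle box genes (1.11 and 0.81 in the 2 windows). The mean of the 8 genes stood at 9.66 at 166 min in mutant culture 1, its lowest, and the mutant cultures had a second maximum of 9.78 and 9.87, against 11.19 and 11.29 in the wild-type cultures. The SWI4 culture means from 206 to 262 min, given above, overlapped between the strains.

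Among 16 other regulators of Start, the commitment to a new cycle, 6 were higher and 4 lower in the mutant over the whole course. That is 10 of 16 called, against 10.8% of all genes, and 6 of the 16 are also on the SBF or early cell cycle box lists. MSA1 and MSA2, whose proteins bind SBF and MBF, were lower in the mutant, with whole-course differences of -0.82 and -0.51 (limma adjusted p = 0.0027 and 0.012). Their differences between the strains in the 158 to 198 min window were -1.87 and -1.38 (0.00044 and 0.00096). FAR1, an inhibitor of the G1 cyclin kinase, and MCM1 were also lower in the mutant over the whole course, with differences of -1.43 (0.00099) and -0.38 (0.032). MSA1 lay below background on 18 of 30 mutant arrays and FAR1 on 12, against 0 and 1 of 28 wild-type arrays, so their differences may be understated. CDC28, the cyclin-dependent kinase gene, was higher in the mutant by 0.49 (0.011), YOX1, a partner of Mcm1 in repression, by 0.44 (0.033) and YHP1 by 0.50 (0.015). CLN1, CLN2 and PCL1 were the other 3 that were higher. PCL2 (0.26), SKN7 (-0.26), WHI3 (-0.51), WHI4 (-0.23), AZF1 (-0.11) and XBP1 (0.21) were not called over the whole course. Of these, WHI3, which encodes a protein that binds CLN3 mRNA, was lower in the mutant in the 206 to 262 min window (difference -1.05, limma adjusted p = 0.029). SKN7 was lower in the 158 to 198 and 206 to 262 min windows (-0.48 and -0.50, adjusted p = 0.017 and 0.021). XBP1 was higher in both (0.40 and 0.91, adjusted p = 0.031 and 0.0030), though it lay below background on 27 of 30 mutant and 25 of 28 wild-type arrays.

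The genes most like each of the 8 were ranked by Pearson's r over all 58 arrays, which share cultures and recovery from elutriation, so r is a description only. SWI4 was followed most closely by RLF2 (0.91), ESC8 (0.90) and RAD53 (0.89). ESC8 was lower in the mutant by 0.90 from 158 to 198 min (limma adjusted p = 0.0017), RAD53 by 0.39 (0.0496) and RLF2 by 0.33 (0.038). STB1 was followed by CDC45 (0.94), DPB2 (0.93) and SPH1 (0.92), of which CDC45 and DPB2, like RAD53, are on the MBF list. NRM1 was followed by YJL118W (0.98), WSC2 (0.98) and PMI40 (0.97), and WSC2, a cell wall sensor gene, was higher in the mutant by 0.68 from 158 to 198 min (adjusted p = 0.0068). YJL118W was higher by 0.44 (0.034) and PMI40 had 0.24 (0.16).

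WHI5 was followed by BFA1 (0.91), ASC1 (0.91) and WHI3 (0.89). BFA1 lay below background on 30 of 30 mutant and 23 of 28 wild-type arrays, so its rank rests on signal not above background. SWI6 was followed by DUT1, SWI3 and SET1 (0.87, 0.87 and 0.86). CLN3 was followed by PMP1 (0.88), YCR024C-B (0.88) and PIS1 (0.86), with lower r within the wild type (0.57, 0.59 and 0.61) than within the mutant (0.84, 0.86 and 0.76). MBP1 had HSK3 (0.86), DCP2 (0.83) and COG2 (0.82), and BCK2 had MZM1 (0.80), NTC20 (0.79) and YPL034W (0.79). Among the 8 genes themselves SWI4 and STB1 had r of 0.88 over 30 mutant arrays and 0.83 over 28 wild-type arrays. SWI6 and NRM1 had 0.54 in the mutant against 0.92 in the wild type, and WHI5 and NRM1 0.63 and 0.92. NRM1 and BCK2 ran opposite to each other in both strains, with r of -0.80 and -0.77.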

How the data were processed

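RNA of 58 yeast samples was read on Affymetrix arrays. The authors deposited 1 linear intensity per probe set and array (86.1 to 33787), made with affy 1.8.1 per the submitters' processing notes. For background correction, probe summary and scaling, the method was not given in the sources used here. Arrays averaged 2067 to 2121 in intensity. Of 10928 probe sets, 5498 were named through the platform table and the R64 gene table to 5449 genes, with the brightest probe set where a gene had several (47 genes). No genome was used, so no coordinates are given.

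Values were taken as log2(intensity + 1). The culture was the replicate (n = 2 per strain, per the series design), averaged over 56 arrays at times both strains have on a sampling grid, which leaves out 2 mutant arrays. Windows held 2, 3, 3, 2 and 4 arrays per culture. limma 3.58.1 in R 4.3.3 compared the strains over all genes. Periodicity was fitted over arrays beside culture and linear time, with the period between 60 and 160 min that best explained the SBF and MBF lists. The number of arrays limits precision. Parts of the procedure were tested on simulated data, and no figures from those tests are given here. Replicate numbers did not pair the cultures: deviations of same-numbered cultures correlated at -0.06 over genes. Alternatives were in scaling, pseudocount, filter, probe sets, blocks, trend, period and left-out arrays or cultures.

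The 8 genes, the gene lists (SBF and MBF targets, early cell cycle box genes, other Start regulators, a-specific, alpha-specific and meiotic markers) and the tests were chosen with earlier results of these data known. Besides the 8 genes, the text names the 3 genes most correlated with each, the 3 widest level differences of the first 3 lists, the Start regulators and the disrupted genes.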

Additional observations from a re-analysis of the deposited data

Results flagged for a closer look

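For 3 of the 8 genes the change from the 62 to 102 min window to the 158 to 198 min window differed between the strains by a direct test (limma over all genes, n = 2 cultures per strain), as it did for 24.6% of all genes. The difference in that change was -1.02 for SWI4, 0.45 for NRM1 and -0.67 for CLN3, mutant minus wild type. Each call was lost with 1 culture left out: SWI4 without wild-type culture 2 (adjusted p = 0.062), NRM1 without wild-type culture 1, wild-type culture 2 or mutant culture 1 (0.085, 0.16 and 0.089), and CLN3 without wild-type culture 1 or 2 (0.086 and 0.12). CLN3 moved in opposite directions, down in both mutant cultures and slightly up in both wild-type cultures. Between these windows SWI4 went down and NRM1 up in all 4 cultures, by more in the mutant. The NRM1 peak, at 110 or 118 min, lies between them. Its means from 110 to 150 min were 11.62 and 11.64 in the mutant and 11.30 and 11.40 in the wild type. From 158 to 198 min all 4 cultures were below that, at 11.09 and 10.90 in the mutant and 10.28 and 10.18 in the wild type. No group of samples had a size at which single samples could be checked for standing apart.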

How the results depend on the processing

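Of the 80 tests on the 8 genes, 16 passed, and 4 of these passed under every alternative run on them: CLN3 over the whole course, and SWI4, NRM1 and CLN3 from 158 to 198 min. Of those that did not pass, 46 passed under no alternative. No call changed its direction. Over all genes, the count of called genes ranged with 1 culture left out, where the lone culture is assumed to vary like the others, from 289 to 1594 over the whole course (586 with all), from 0 to 5 for 30 to 54 min (6), 19 to 225 for 62 to 102 min (46), 111 to 1478 for 110 to 150 min (474), 532 to 2009 for 158 to 198 min (1270) and 416 to 3209 for 206 to 262 min (1794). The same range was 122 to 1124 for the change between windows (1342), 0 to 1 for the swing (8), 0 to 103 for periodic genes in the wild type (632) and 21 to 89 in the mutant (381). Where a count was 0 (limma), 177 and 197 genes were under 0.05 unadjusted from 30 to 54 min, 247, 298 and 514 for the swing, and 1097 for periodic genes in the wild type. With the replicate block 0 genes were called from 30 to 54 min (limma; 252 at an unadjusted p under 0.05) and 0 for the swing (454), and in the 8 genes it changed only the call of MBP1 from 158 to 198 min (0.47, adjusted p = 0.047). The cultures share only a number. With the sampling grid as a block the counts were 13 from 30 to 54 min and 15 from 62 to 102 min. The swing count was 5 with centred arrays, 4 after quantile normalization, 12 with a pseudocount of 50 or the grid block, and 2 above background. Periodic genes in the wild type numbered 309 without the arrays before 62 min, when the peak-to-trough of WHI5 (0.53) and STB1 (0.57) came under 1.5-fold, 398 without the time term and 249 with a period 10 min shorter. In the mutant they numbered 220 without the time term. NRM1 passed in the mutant without that term (adjusted p = 0.025), with a pseudocount of 50 (0.049), without the arrays before 62 min (0.0076) and with a period 10 min longer (0.0064). The causes were not tested. STB1 lay under the background filter on average and has no value with it.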
